A study of Mus musculus with 8 samples.

Results

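The 37 genes of the mitochondrial chromosome were followed through the depletion of 3 members of the HIRA histone chaperone complex in mouse ESCs. They were chosen by symbol alone, as every gene of the count tables whose symbol starts with mt-, out of 55418 genes listed. They comprised 13 protein-coding genes, 2 rRNA genes and 22 tRNA genes, and all 37 matched an annotated gene of GRCm38 in GENCODE release M21. RNA-seq was available from 8 libraries, 2 from each of 4 groups of E14 ESCs, a mouse embryonic stem cell line labelled with the strain 12910la and grown without feeders on gelatin with serum and LIF. The groups were control cells and cells depleted of Hira, Ubn1 or Ubn2 by an shRNA expressed from the pSuper puro plasmid. All groups received 1000 ng of plasmid and, from 24 h after transfection, 1 µg/ml of puromycin for 3 days, as the labels state it. The labels call the control wild type, whereas the study describes a control shRNA against luciferase. Each group is a transfected and selected population of the same line, and nothing in the sources says that its libraries came from separate cultures, so that p-values measure the spread between these libraries, which may be technical. Puromycin selection and plasmid were shared by all groups, and no unselected ESCs were analysed here.

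The mitochondrial chromosome is a small circular DNA that is transcribed from both strands into long RNAs covering many genes. In most places a tRNA gene sits between 2 neighbouring mRNAs or rRNAs, and cutting out the tRNAs releases the mature RNAs. The mRNAs encode subunits of the respiratory chain (complexes I, III and IV) and of ATP synthase, which sit in the inner mitochondrial membrane beside many subunits encoded in the nucleus, while the rRNAs and tRNAs serve the mitochondrial ribosome. ESCs hold relatively immature mitochondria and draw much of their energy from glycolysis. Of the 13 mRNA genes, 12 lie on the plus strand and mt-Nd6 on the minus strand, and 14 tRNA genes lie on the plus and 8 on the minus strand. The tRNA genes are 59 to 75 bases long, and the RNA was prepared with a kit for mRNA and primed at random, so that mature tRNAs were not a target of the assay. A count on a tRNA gene may come from a mature tRNA, from an uncut precursor or from a neighbouring transcript that ends or starts there, and these cannot be told apart in the tables. The strand setting of the counting is not given in the sources used here, so RNA of a gene and of the opposite strand cannot be told apart either.

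The tRNA genes that carry the differences described below are printed 5′ to 3′ on their own strand, from the GENCODE transcript sequences of GRCm38, with the anticodon in capitals. The threonine tRNA gene mt-Tt (chrM:15289-15355, plus strand) had lower counts after each depletion, and the proline tRNA gene mt-Tp (chrM:15356-15422, minus strand) follows it directly. The histidine, serine and leucine tRNA genes mt-Th (chrM:11546-11612), mt-Ts2 (chrM:11613-11671) and mt-Tl2 (chrM:11671-11741) form an unbroken run on the plus strand. The leucine tRNA gene mt-Tl1 (chrM:2676-2750, plus strand) lies between mt-Rnr2 and mt-Nd1. The glutamate tRNA gene mt-Te (chrM:14071-14139) lies on the minus strand beside mt-Nd6.
mt-Tt: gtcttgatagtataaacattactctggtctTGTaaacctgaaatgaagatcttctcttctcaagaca
mt-Tp: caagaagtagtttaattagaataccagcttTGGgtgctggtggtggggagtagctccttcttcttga
mt-Th: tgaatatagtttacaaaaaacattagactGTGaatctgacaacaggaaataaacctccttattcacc
mt-Ts2: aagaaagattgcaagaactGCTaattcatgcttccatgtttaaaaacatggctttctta
mt-Tl2: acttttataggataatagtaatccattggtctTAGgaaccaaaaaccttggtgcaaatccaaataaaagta
mt-Tl1: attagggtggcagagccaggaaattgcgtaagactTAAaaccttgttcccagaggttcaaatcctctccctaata
mt-Te: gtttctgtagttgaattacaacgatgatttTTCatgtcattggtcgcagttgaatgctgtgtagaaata

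The libraries held between 19710040 and 32706053 counts on genes. A gene that no read hit in a library could therefore hold at most 9.17e-06% to 1.52e-05% of its counts, the share of 3 counts, which covers counting error only. The ESC markers Pou5f1, Sox2, Nanog and 7 others summed to between 5790 and 7329 CPM (counts scaled to the TMM-adjusted size of the library). Hira was lower upon Hira depletion by a log2 fold change of -3.22, Ubn1 upon Ubn1 depletion by -1.03 and Ubn2 upon Ubn2 depletion by -0.90, and each passed the test described below. The second Ubn2-depleted library stood apart in RNAs that an mRNA kit should not retain. Its 12 listed RNAs without a poly(A) tail summed to 58.1 CPM, against 3.7 to 15.7 in the other libraries, and its 4 nuclear genes that collect ribosomal RNA reads summed to 10422 CPM, against 2166 to 5280. Values that could move with this library are given for both Ubn2-depleted libraries.

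Mitochondrially encoded genes took a larger share of the counts in the Ubn2-depleted libraries than in any other library. The share was 1.17% and 1.10% in the control libraries, 1.04% and 1.12% upon Hira depletion, 1.15% and 0.821% upon Ubn1 depletion, and 1.45% and 1.41% upon Ubn2 depletion. In mean and SD (n = 2 each) this was 1.14% ± 0.0487 in control, 1.08% ± 0.0588 upon Hira, 0.986% ± 0.233 upon Ubn1 and 1.43% ± 0.0229 upon Ubn2 depletion. The Wilson 95% interval of a single share was at most 0.00521 percentage points to either side, which covers counting error only. The Ubn2-depleted libraries were 1.26 times the control mean and did not overlap the control libraries, the Hira-depleted or the Ubn1-depleted ones. The exact two-sided permutation test gave p = 0.33 for each of these 3 comparisons, the smallest value that 2 libraries against 2 allow, and p = 0.667 for Hira or Ubn1 depletion against control. The second Ubn1-depleted library was the lowest of the 8, and without it the Ubn1 share of mRNA counts was within 0.016 of control on the log2 scale.

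The 3 kinds of RNA differed in size and in how they varied. The mRNAs held between 96.8% and 97.6% of the counts on mitochondrially encoded genes, the rRNAs 1.28% to 1.89% and the tRNAs 0.893% to 1.40%. The mRNA share of all counts was 1.11% ± 0.0510 in control and 1.39% ± 0.0198 upon Ubn2 depletion (SD, n = 2), a ratio of 1.25. The rRNA share was 0.0172% ± 0.00127 in control and 0.0256% ± 0.00250 upon Ubn2 depletion, a ratio of 1.48. The tRNA share was 0.0129% ± 0.00353 in control and 0.0191% ± 0.000626 upon Ubn2 depletion, also a ratio of 1.48. In none of the 3 kinds did the Ubn2-depleted libraries overlap the control libraries, whereas Hira-depleted and Ubn1-depleted libraries overlapped control in all 3. In bulk RNA, more mitochondrial RNA in each cell and more cells rich in mitochondria cannot be told apart.

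**Figure D1:**
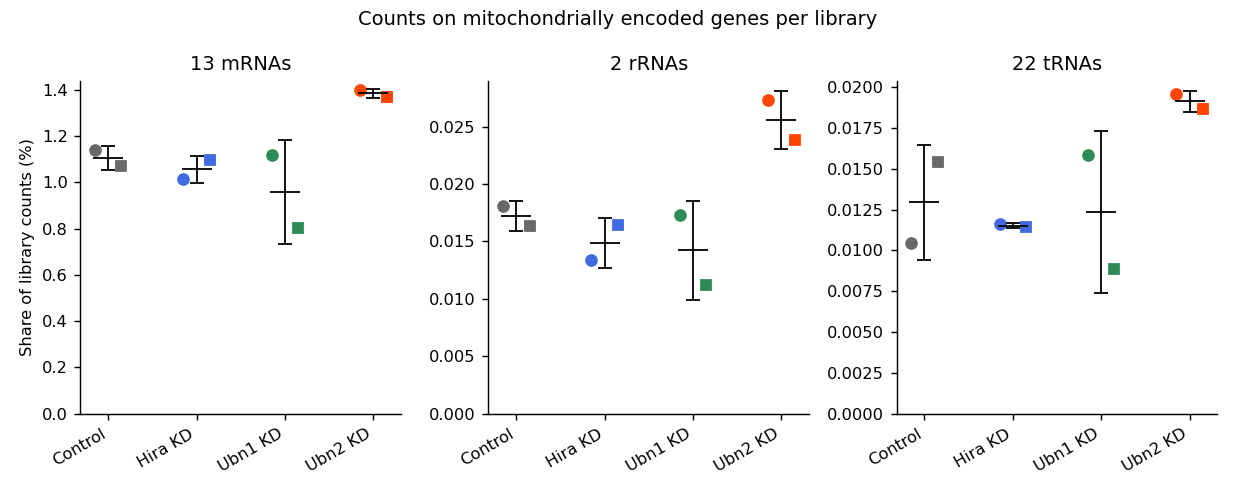
Share of each library's gene counts (%) on the 13 mRNAs, 2 rRNAs and 22 tRNAs of the mitochondrial chromosome, for control, Hira, Ubn1 and Ubn2 knockdown (KD). Circles are replicate 1, squares replicate 2, and black bars the mean ± SD (n = 2). Both Ubn2 KD libraries lie above all others in each panel (mRNA share 1.40% and 1.37%), and replicate 2 of Ubn1 KD is the lowest for each kind of RNA.

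Levels of the 13 mRNAs spanned more than 3 orders of magnitude, and the genes fell into 2 sets by position. Compared per length in the control libraries, mt-Co1, the catalytic subunit of complex IV, was the highest at 3915 ± 424 CPM per kb (SD, n = 2). It was followed by mt-Cytb, the complex III subunit cytochrome b, at 1589 ± 160 CPM per kb and by the complex I subunits mt-Nd1 at 1049 ± 118, mt-Nd5 at 628 ± 89.3, mt-Nd4 at 552 ± 24.0, mt-Nd2 at 493 ± 57.3 and mt-Nd6 at 269 ± 30.4 CPM per kb. In this order the control values of mt-Nd5 and mt-Nd4 overlapped, and no other neighbours did. Parts of mt-Co1 and mt-Nd4 lie in a stretch copied in the nuclear genome, described below, so their ranks, levels and shares are uncertain. mt-Co1 alone held 52.8% ± 3.67 of the mRNA counts in control, and between 50.2% and 57.6% in the 8 libraries. The other 6 mRNAs had levels of 0.990 to 10.5 CPM per kb in control. They were the complex IV subunits mt-Co2 and mt-Co3, the ATP synthase subunits mt-Atp8 and mt-Atp6, and the complex I subunits mt-Nd3 and mt-Nd4l. The counts on mt-Co2 were 131 and 187 in the control libraries, where mt-Co1 had 133781 and 175453.

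**Figure D2:**
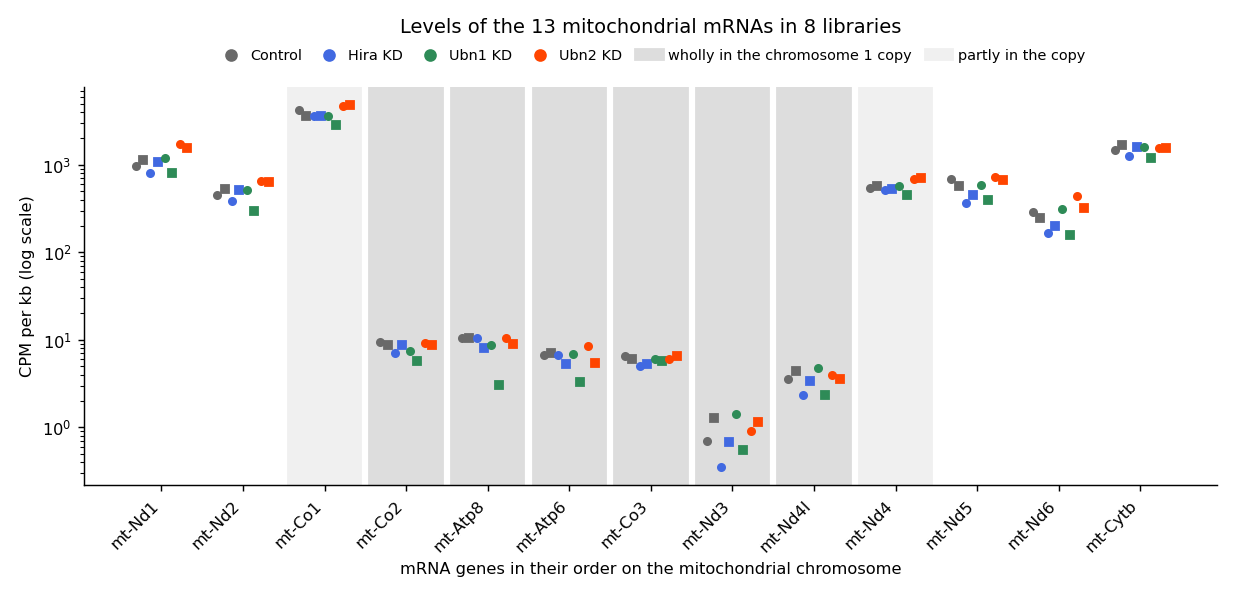
Level of each mitochondrial mRNA in CPM per kb (log axis) in the 8 libraries, with genes in chromosomal order, colours for the groups, circles for replicate 1 and squares for replicate 2. Shading marks genes wholly or partly inside the stretch copied on chromosome 1. The 6 genes wholly inside the stretch by position lie near 10 CPM per kb or lower in all groups, and the lowest value of the 7 others is 158 CPM per kb, for mt-Nd6 in replicate 2 of Ubn1 KD.

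All 6 low mRNAs lie inside a stretch of the mitochondrial chromosome, much of which also exists in the nuclear genome. Genes on chr1:24611535-24616197 of GRCm38, 7 pseudogenes on the minus strand over 4663 bases, aligned to chrM:6390-11042 at 99.71% identity or more, with 2 mismatches over 4140 aligned bases. The stretch holds all of mt-Co2, mt-Atp8, mt-Atp6, mt-Co3, mt-Nd3 and mt-Nd4l, parts of mt-Co1 and mt-Nd4, and 5 tRNA genes (mt-Ts1, mt-Td, mt-Tk, mt-Tg and mt-Tr). The 6 mRNAs are called wholly copied below, but mt-Atp8 and the 5 tRNA genes were placed in the copy by position alone. Apart from bases shared with aligned neighbours, their sequence was not compared with chromosome 1. The mismatches are A1066T between mt-Co1 and Gm29216 and T3C between mt-Nd3 and Gm28438, counted from 1 at the start of the mitochondrial gene and written from the mitochondrial base to the base of the copy. Bases outside these alignments were not compared and may hold other differences. The 2 mismatches are shown in capitals within the aligned stretch around each, since a read covering one could be assigned to one place.
mt-Co1: ggaAttgttttatccaactcatcc
Gm29216: ggaTttgttttatccaactcatcc
mt-Nd3: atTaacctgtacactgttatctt
Gm28438: atCaacctgtacactgttatctt

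Windows of 100 bases that also occur letter for letter in a nuclear transcript made up between 97.6% and 99.9% of mt-Co2, mt-Atp6, mt-Co3, mt-Nd3 and mt-Nd4l, 60.8% of mt-Nd4, 30.8% of mt-Co1 and 3.19% of mt-Nd2, and 0% of mt-Nd1, mt-Nd5, mt-Nd6, mt-Cytb and both rRNAs. mt-Atp8 also scored 0%, although it lies between copied genes. No annotated nuclear transcript held such a window of it, and the genome sequence was not searched, so whether chromosome 1 holds all of mt-Atp8 was not tested. Of its 204 bases, mt-Atp8 shares 43 (chrM:7927-7969) with the start of mt-Atp6, whose first codon is in capitals in the overlap printed here as an example of sequence that belongs to a pair of genes.
mt-Atp8 and mt-Atp6: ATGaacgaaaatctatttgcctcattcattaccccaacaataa

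How reads matching more than 1 place were counted is not given in the sources used here, and its part in the low counts was not tested. The 7 pseudogenes had between 12 and 563 counts each in the 8 libraries, together 796 and 1747 in control. Both Gm28438, the copy of mt-Nd3, and Gm10222, the copy of mt-Nd4l, were higher upon Ubn2 depletion by log2 fold changes of 0.76 (adjusted p = 0.00133) and 0.80 (adjusted p = 0.0113) in the test described next, whereas mt-Nd4l itself had a log2 fold change of -0.07. Gm28438 had 203 and 563 counts in control and 523 and 464 upon Ubn2 depletion. Gm10222 had 56 and 169 in control and 164 and 134 upon Ubn2 depletion. Relative to depth (21174666 and 32706053 counts), the first control library was lower than the second in both genes. Whether the 2 calls hold without it was not examined. The search found 11 copies in all, some of them on chromosomes 2 and 13, such as Gm13340, which spans mt-Co1 at 97.6% identity. A copy of mt-Co2 on chromosome 2 was also called higher upon Ubn2 depletion (log2 fold change 1.42, adjusted p = 0.0428 in edgeR's test). It had 9 and 8 counts in control and 18 and 19 upon Ubn2 depletion. The Ubn2-depleted libraries alone carried it past the filter on low counts, so it could be tested only by being higher there. With the counting of such reads unknown, counts of the 6 wholly copied mRNAs, of the tRNAs among them and of the pseudogenes are uncertain. So are those of mt-Co1 and mt-Nd4, which lie partly in the stretch. Of the 22 tRNA genes, mt-Tk had no count in any library, mt-Td had at most 1, mt-Tg at most 2 and mt-Tv at most 5. mt-Tr had 1 to 12 counts, mt-Ts1 2 to 17 and mt-Tf 4 to 22, and the other tRNAs had between 16 and 951. mt-Tv is the valine tRNA between the 2 rRNAs and lies outside the copied stretch.

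Each depletion was then compared with control to see which mitochondrially encoded genes changed. A gene was called changed when its p, from the quasi-likelihood test of edgeR and adjusted by the Benjamini-Hochberg method across all genes tested, was under 0.05 and its fold change over 1.5. The filter on low counts left 30 of the 37 genes in the Hira comparison and 31 in each of the others with control. mt-Tv, mt-Td, mt-Tk, mt-Tg and mt-Tr were tested in none of the comparisons, and mt-Nd3 only in that of Ubn1 with control. mt-Tf was not tested for Hira against control, nor mt-Ts1 for Ubn1 against control or against Hira. Upon Hira depletion 0 mitochondrially encoded genes were called higher and 3 lower, where 10.8% of the 19035 genes tested were called higher and 5.40% lower. Upon Ubn1 depletion 0 were called higher and 3 lower, where 1.53% of 18373 genes were called higher and 1.56% lower. Upon Ubn2 depletion 7 were called higher and 1 lower, where 9.59% of 18219 genes were called higher and 8.75% lower. At an unadjusted p under 0.05, and in either direction, 8 genes passed upon Hira, 9 upon Ubn1 and 13 upon Ubn2 depletion. DESeq2 also called 0 higher upon Hira or Ubn1 depletion. For an unadjusted p and for DESeq2, here and below, no share of all genes is given, so these counts have no base to be read against. The median log2 fold change of the mRNAs tested was -0.19 upon Hira, -0.20 upon Ubn1 and 0.11 upon Ubn2 depletion, beside medians of 0.01, -0.002 and -0.004 over all genes tested. These 3 comparisons share the control libraries, so a gene low or high in both of those appears in each.

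**Figure D3:**
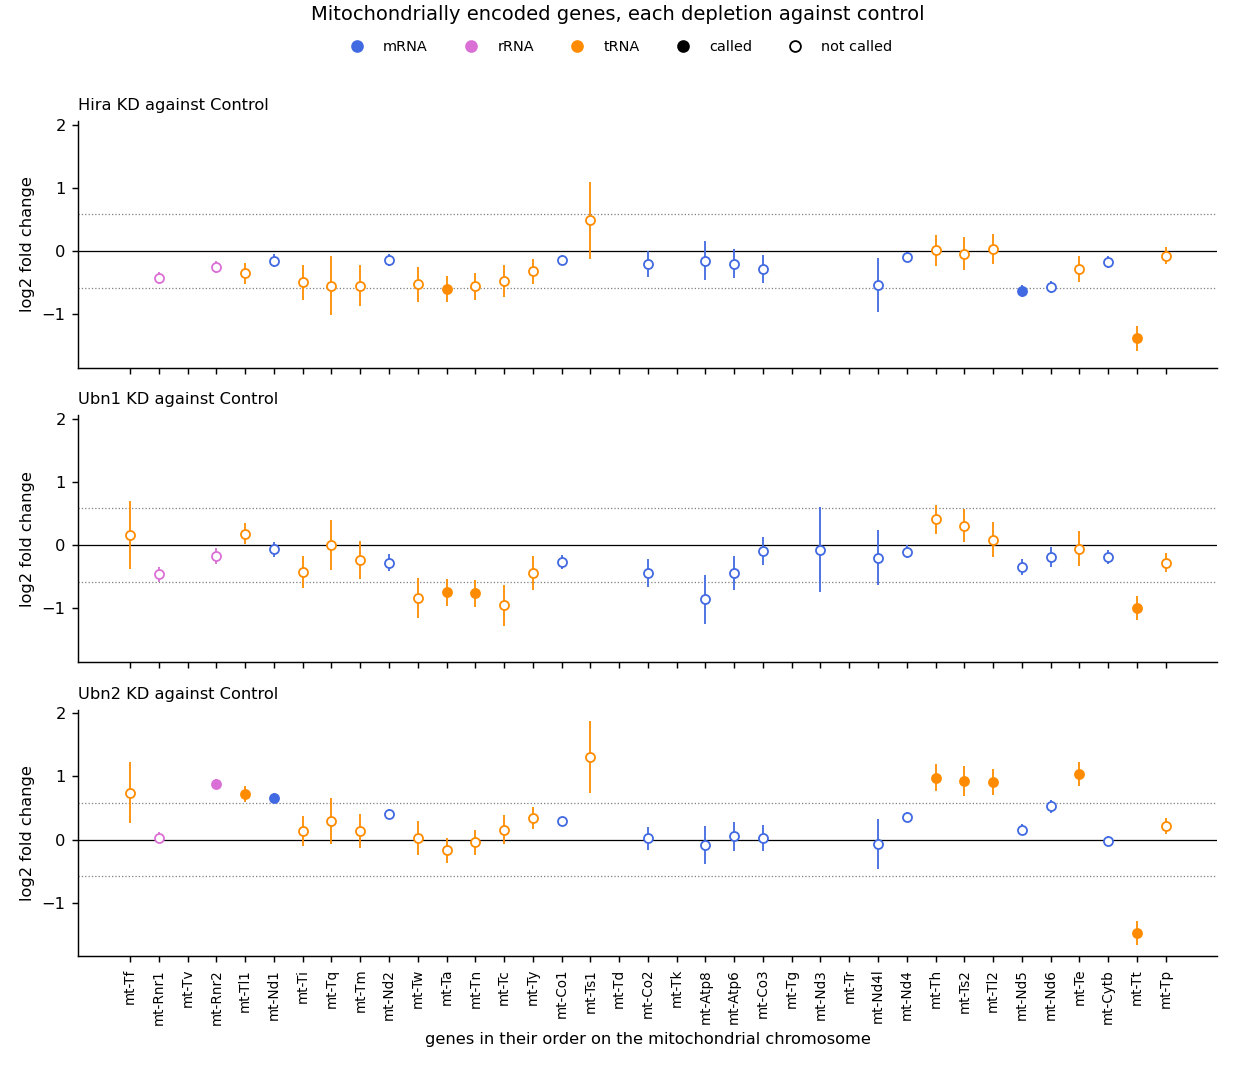
Log2 fold change of each tested mitochondrially encoded gene against control upon Hira, Ubn1 and Ubn2 knockdown (KD), with genes in chromosomal order. Error bars are standard errors of edgeR's fit, filled symbols were called, and dotted lines mark a change of 1.5-fold. mt-Tt is filled in all 3 panels (-1.39, -0.996 and -1.48), and the filled symbols above 0 are all in the Ubn2 KD panel.

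The threonine tRNA gene mt-Tt was the only mitochondrially encoded gene called in all 3 comparisons with control. Its level was 10.4 and 9.23 CPM in the control libraries, 3.74 and 3.78 upon Hira depletion, 4.83 and 4.92 upon Ubn1 depletion, and 3.24 and 3.69 upon Ubn2 depletion. Both control libraries lay above all 6 depleted ones, and the replicates of a group were within 1.14 times of each other. The counts behind these levels were 213 and 290 in control and between 71 and 128 in the depleted libraries. Against control the log2 fold change of mt-Tt was -1.39 upon Hira (standard error, SE, 0.19, adjusted p = 1.29e-05), -0.996 upon Ubn1 (0.19, adjusted p = 0.000804) and -1.48 upon Ubn2 depletion (0.19, adjusted p = 3.77e-06) in edgeR's test. The gene was called in each of the 3 comparisons under all 9 alternative settings, and with each library left out in turn. Among the 9 settings, here and below, calls by adjusted p alone keep every called gene by definition and so test nothing. Its neighbours differed less. mt-Cytb, which directly precedes mt-Tt, had log2 fold changes between -0.18 and -0.02, and mt-Tp, which directly follows it on the opposite strand, between -0.28 and 0.21, and neither was called.

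The ratio of mt-Tt to a neighbour within a library needs no scaling between libraries, and was computed after these values were seen. Per 1000 counts on mt-Cytb there were 6.14 and 4.74 on mt-Tt in control, 2.60 and 2.10 upon Hira depletion, 2.66 and 3.59 upon Ubn1 depletion, and 1.84 and 2.07 upon Ubn2 depletion. Per count on mt-Tp there were 0.742 and 0.676 on mt-Tt in control, 0.282 and 0.289 upon Hira, 0.447 and 0.414 upon Ubn1, and 0.194 and 0.248 upon Ubn2 depletion. By both ratios the control libraries lay above every depleted library. Between the depletions themselves mt-Tt was not called, with log2 fold changes of 0.11 (SE 0.24) for Hira against Ubn2, -0.37 (0.24) for Hira against Ubn1 and -0.48 (0.23) for Ubn2 against Ubn1.

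The 2 rRNAs did not follow each other upon Ubn2 depletion, although mt-Rnr1, the rRNA of the small mitochondrial ribosomal subunit, and mt-Rnr2, that of the large subunit, lie in a row with only mt-Tv between them. mt-Rnr2 (chrM:1094-2675) was at 95.8 and 87.5 CPM in the control libraries, 68.9 and 86.4 upon Hira depletion, 98.7 and 63.3 upon Ubn1 depletion, and 176 and 158 upon Ubn2 depletion. It rose upon Ubn2 depletion by a log2 fold change of 0.89 (SE 0.07, edgeR adjusted p = 6.45e-09), and both Ubn2-depleted libraries lay above the 6 others. mt-Rnr1 (chrM:70-1024) was at 91.1 and 82.6 CPM in control and at 96.1 and 78.9 CPM upon Ubn2 depletion, with a log2 fold change of 0.03 (SE 0.09). Upon Hira depletion mt-Rnr1 was at 57.9 and 72.1 CPM and upon Ubn1 depletion at 74.0 and 51.7 CPM, with log2 fold changes of -0.43 (adjusted p = 0.00153) and -0.46 (adjusted p = 0.0135) that passed on p and not on fold change. Within a library there were 1.05 and 1.06 counts on mt-Rnr2 per count on mt-Rnr1 in control, 1.19 and 1.20 upon Hira, 1.33 and 1.22 upon Ubn1, and 1.83 and 2.01 upon Ubn2 depletion. The 4 groups did not overlap in this ratio, which was also computed after the values were seen. The level of mt-Rnr2 was the highest in the first Ubn2-depleted library, and its ratio to mt-Rnr1 in the second (2.01 against 1.83). Nuclear rRNA reads summed to 2166 CPM in the first, the lowest of the 8 libraries, and to 10422 CPM in the second. Whether retained rRNA bears on the level or the ratio was not tested.

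The leucine tRNA and the complex I subunit that follow mt-Rnr2 were also called upon Ubn2 depletion, so that 3 genes in a row (chrM:1094-3707) were called higher. mt-Nd1 was at 924 and 1084 CPM in control, 772 and 1042 upon Hira depletion, 1144 and 765 upon Ubn1 depletion, and 1636 and 1495 upon Ubn2 depletion. Its log2 fold change upon Ubn2 depletion was 0.66 (SE 0.08, adjusted p = 7.24e-07 in edgeR's test). Per count on mt-Cytb, whose own log2 fold change was -0.02, there were 0.547 and 0.557 counts on mt-Nd1 in control and 0.929 and 0.838 upon Ubn2 depletion. This ratio was chosen after the values were seen and restates the difference without adding support to it. mt-Tl1 was at 19.7 and 29.5 CPM in control and at 43.5 and 37.4 CPM upon Ubn2 depletion, with a log2 fold change of 0.72 (SE 0.13, adjusted p = 0.000216). Without the first control library the log2 fold changes were 0.55 for mt-Nd1 and 0.48 for mt-Tl1 and fell short of 1.5-fold. Both kept the call under the 9 alternative settings.

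Another 4 tRNA genes were called higher upon Ubn2 depletion, and 3 of them rested on the first control library. mt-Th was at 8.32 and 20.5 CPM in the control libraries, 17.4 and 12.1 upon Hira depletion, 25.3 and 13.8 upon Ubn1 depletion, and 27.9 and 29.8 upon Ubn2 depletion. The first control library was the lowest of the 8 for mt-Th, and for the adjoining mt-Ts2 as well, with 6.82 CPM against 18.0 in the second. In mt-Tl2 it held 5.99 CPM against 13.1, and only the second Ubn1-depleted library was lower, at 5.53 CPM. The log2 fold changes upon Ubn2 depletion were 0.98 for mt-Th, 0.93 for mt-Ts2 and 0.91 for mt-Tl2, with adjusted p between 0.00101 and 0.003 in edgeR's test. Without the first control library these became 0.52, 0.44 and 0.50 and were no longer called, nor were they called by DESeq2. mt-Te, the minus-strand glutamate tRNA, was at 7.89 and 5.95 CPM in control and at 16.7 and 11.0 CPM upon Ubn2 depletion. Its log2 fold change of 1.04 (SE 0.19, adjusted p = 0.000203) was called with each library left out and under all 9 alternatives.

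**Figure D4:**
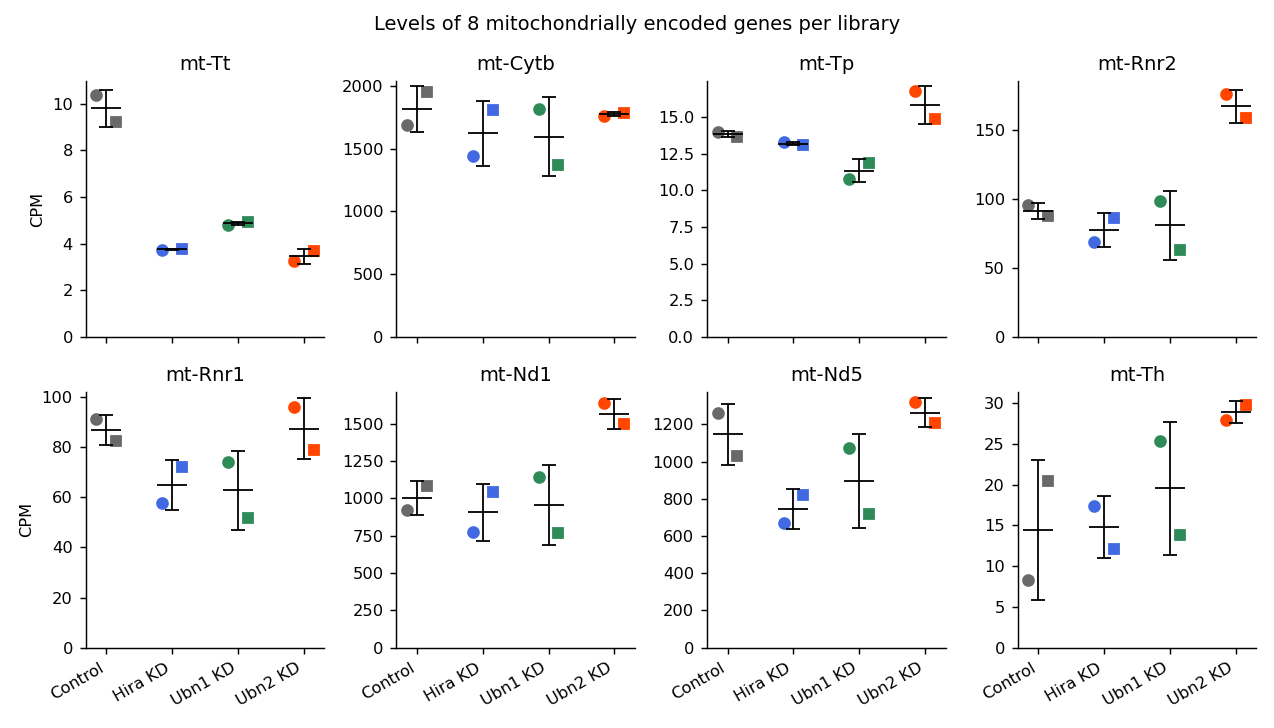
Levels in CPM of mt-Tt and its neighbours mt-Cytb and mt-Tp, of the rRNAs mt-Rnr2 and mt-Rnr1, and of mt-Nd1, mt-Nd5 and mt-Th in each library, with circles for replicate 1, squares for replicate 2 and black bars for mean ± SD (n = 2). mt-Tt is above 9 CPM in both control libraries and below 5 CPM in the 6 others, and mt-Rnr2 and mt-Nd1 are highest in both Ubn2 KD libraries.

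The respiratory chain mRNAs changed less than 1.5-fold in most comparisons with control. Upon Ubn2 depletion mt-Nd1 was the only mRNA called, but mt-Nd2 (log2 fold change 0.41), mt-Co1 (0.30), mt-Nd4 (0.36) and mt-Nd6 (0.53) passed on p, with adjusted p between 0.000237 and 0.000815 in edgeR's test, while mt-Cytb had -0.02 and mt-Nd5 0.16. mt-Co1 was at 6512 and 5586 CPM in control and at 7318 and 7357 CPM upon Ubn2 depletion. mt-Cytb was at 1689 and 1947 CPM in control and at 1761 and 1785 CPM upon Ubn2 depletion, inside the spread of control. Its part of the mRNA counts was 15.9% ± 2.21 in control and 12.9% ± 0.278 upon Ubn2 depletion, and that of mt-Nd1 8.79% ± 1.33 and 11.3% ± 0.583 (SD, n = 2). None of the 6 wholly copied mRNAs was called in any comparison. Their log2 fold changes upon Ubn2 depletion lay between -0.09 and 0.05, where 5 of the 6 were tested.

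Upon Hira depletion mt-Nd5 was the only mRNA called, and the complex I subunit mt-Nd6 on the opposite strand came close. mt-Nd5 was at 1261 and 1031 CPM in control, 669 and 820 upon Hira depletion, 1075 and 719 upon Ubn1 depletion, and 1319 and 1209 upon Ubn2 depletion. It was lower upon Hira depletion by a log2 fold change of -0.63 (SE 0.10, adjusted p = 4.6e-05 in edgeR's test), with no overlap between the groups. mt-Nd6 was at 151 and 128 CPM in control and at 85.6 and 103 CPM upon Hira depletion, a log2 fold change of -0.57 (adjusted p = 7.67e-05) just short of 1.5-fold. The 2 genes overlap between 13552 and 13565 on opposite strands, so that their counts may not be independent. Per count on mt-Cytb there were 0.747 and 0.529 counts on mt-Nd5 in control and 0.466 and 0.455 upon Hira depletion, a ratio that was also chosen after the values were seen. Left out in turn, the first control library and the first Hira-depleted one each took mt-Nd5 below 1.5-fold, with log2 fold changes from -0.79 to -0.47 over the 4 libraries and an adjusted p of at most 0.000298. Scaling by library totals in place of TMM gave -0.51 and also took it below 1.5-fold. The other mRNAs tested had log2 fold changes from -0.53 to -0.09 upon Hira depletion.

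The alanine and asparagine tRNA genes mt-Ta and mt-Tn, neighbours on the minus strand (chrM:5018-5159), were called lower upon Ubn1 depletion. mt-Ta was at 6.47 and 9.93 CPM in control, 5.08 and 6.01 upon Hira depletion, 5.69 and 4.19 upon Ubn1 depletion, and 7.95 and 6.58 upon Ubn2 depletion. Its log2 fold change was -0.74 upon Ubn1 (adjusted p = 0.0294) and -0.60 upon Hira depletion (adjusted p = 0.0309). mt-Tn was at 6.67 and 10.8 CPM in control and at 6.19 and 4.19 CPM upon Ubn1 depletion, a log2 fold change of -0.76 (adjusted p = 0.0284). The control libraries differed by 1.53 times in mt-Ta and 1.61 times in mt-Tn, close to the size of these changes. Neither gene was called without the second control library or without the second Ubn1-depleted one, with log2 fold changes nearest to 0 of -0.40 for mt-Ta and -0.37 for mt-Tn, nor was either called by DESeq2. The call of mt-Ta upon Hira depletion held in 4 of 9 alternative settings and was lost without the second control library (-0.25) or the first Hira-depleted one (-0.47). No mRNA or rRNA was called upon Ubn1 depletion, where mRNA log2 fold changes ran from -0.86 for mt-Atp8 to -0.06 for mt-Nd1.

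The depletions were also compared directly, without the control libraries. Hira-depleted cells had 0 mitochondrially encoded genes higher and 12 lower than Ubn2-depleted cells among 31 tested, where 12.0% of 18563 genes were called higher and 5.61% lower. The 12 were the rRNA mt-Rnr2, the complex I mRNAs mt-Nd1, mt-Nd5 and mt-Nd6, and 8 tRNAs. mt-Rnr2 had a log2 fold change of -1.11 (SE 0.10, adjusted p = 1.4e-06), mt-Nd6 -1.08 (0.12, adjusted p = 1.32e-05), mt-Nd1 -0.79 (0.11, adjusted p = 0.000107) and mt-Nd5 -0.77 (0.10, adjusted p = 3.91e-05) in edgeR's test. mt-Nd6 was at 85.6 and 103 CPM upon Hira depletion and at 229 and 167 CPM upon Ubn2 depletion. The tRNA genes mt-Th, mt-Ts2, mt-Tl2 and mt-Te, with mt-Nd5 and mt-Nd6, formed a run of 6 neighbours (chrM:11546-14139). Their tRNA log2 fold changes ran from -1.30 for mt-Te to -0.86 for mt-Tl2. mt-Tf passed the filter through the Ubn2-depleted libraries alone, so that it could pass only by being higher there, and 11 genes were called without it. Of the 12, 9 kept the call in all 9 alternative settings and with each library left out, and the exceptions were mt-Tf, mt-Tc and mt-Ty. mt-Tf, the phenylalanine tRNA, had 8 and 4 counts upon Hira and 21 and 18 upon Ubn2 depletion, and lost the call whichever library was left out. The median log2 fold change of the 12 mRNAs tested was -0.42, beside 0.01 over all genes tested.

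**Figure D5:**
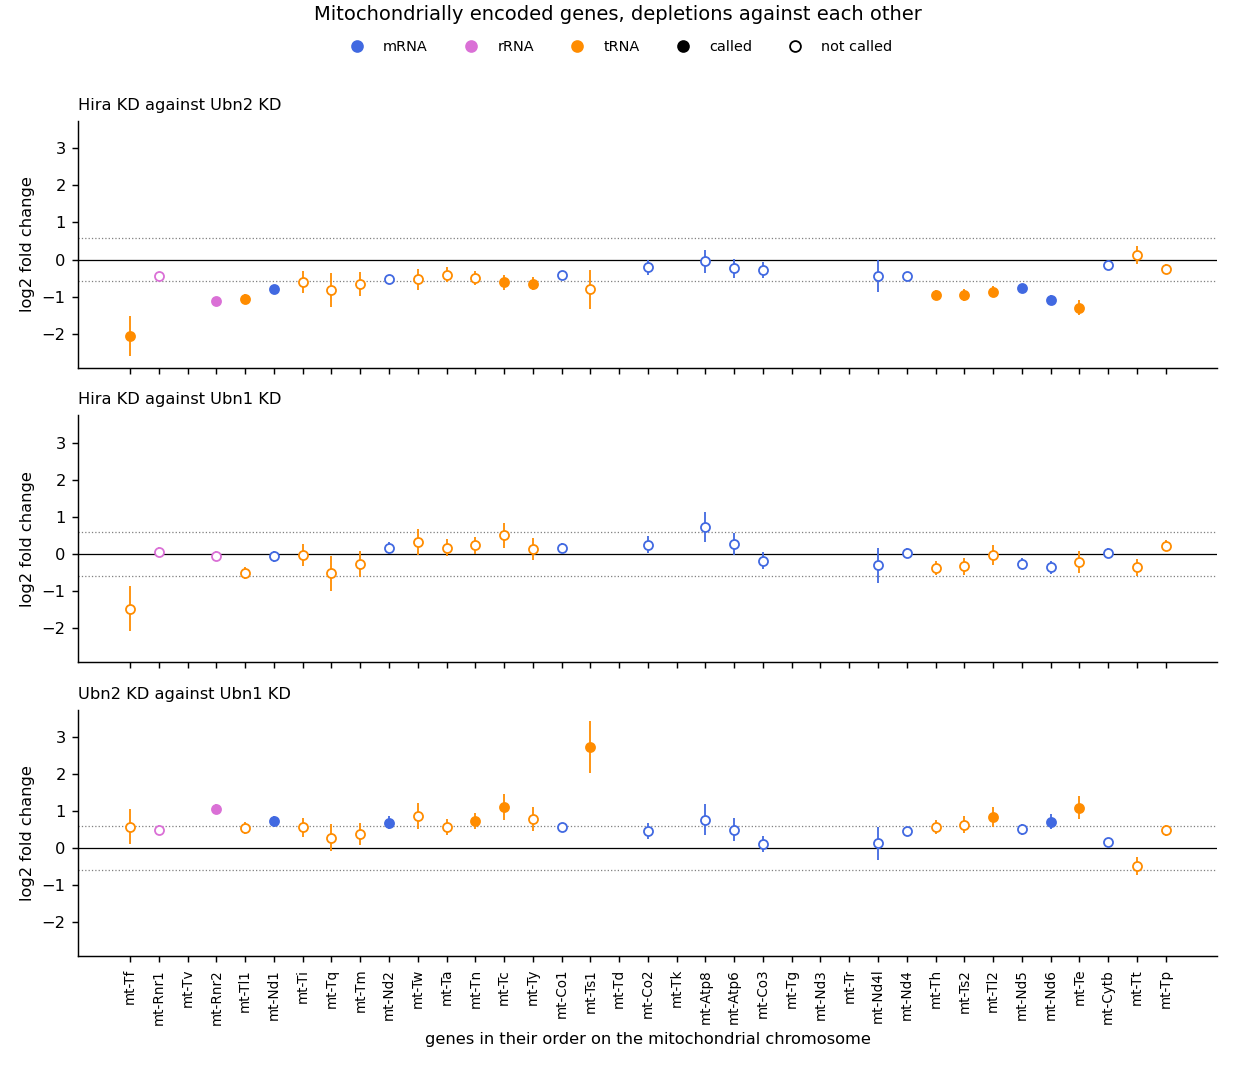
Log2 fold change of each tested mitochondrially encoded gene between depletions, for Hira KD against Ubn2 KD, Hira KD against Ubn1 KD and Ubn2 KD against Ubn1 KD, with genes in chromosomal order. Error bars are standard errors of edgeR's fit, filled symbols were called, and dotted lines mark a change of 1.5-fold. Filled symbols lie below 0 in the top panel (12 genes) and above 0 in the bottom panel (9 genes), and the middle panel has none.

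Ubn2-depleted cells had 9 mitochondrially encoded genes higher and 0 lower than Ubn1-depleted cells among 31 tested, where 4.61% of 18205 genes were called higher and 4.09% lower. The 9 were mt-Rnr2, the mRNAs mt-Nd1, mt-Nd2 and mt-Nd6, and the tRNAs mt-Tn, mt-Tc, mt-Ts1, mt-Tl2 and mt-Te. mt-Rnr2 had a log2 fold change of 1.06 (SE 0.14, adjusted p = 7.03e-05 in edgeR's test) and was the only one of the 9 to keep the call in all alternative settings and without any single library. The other genes of the 9 lost the call without the second Ubn1-depleted library, the low one. With a library left out in turn, the median log2 fold change of the mRNAs tested ranged from 0.24 to 0.79. mt-Ts1, a serine tRNA inside the copied stretch, had 2 and 3 counts upon Ubn1 and 17 and 13 upon Ubn2 depletion, a ratio of 6.91 (exact 95% counting interval 2.66 to 22.8) that covers counting error only. It passed the filter through the Ubn2-depleted libraries alone, where it is high, and 8 genes were called without it. Hira-depleted and Ubn1-depleted cells differed in 0 of 30 genes in either direction by edgeR's test, where 9.52% of 18819 genes were called higher and 3.16% lower upon Hira depletion. At an unadjusted p under 0.05 there were 3 genes, and DESeq2 also called 0. mt-Tl1 came nearest, with a log2 fold change of -0.52 (adjusted p = 0.0294).

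Nuclear genes that act on mitochondrial DNA and RNA were examined as lists, chosen by function. The counts below stand beside 10.8% of all genes tested called higher and 5.40% lower upon Hira depletion, 1.53% and 1.56% upon Ubn1 depletion, and 9.59% and 8.75% upon Ubn2 depletion, and are those against control. Of 10 genes of mitochondrial transcription, 0 were called after any depletion by edgeR's test or by DESeq2, and 5 passed an unadjusted p under 0.05 upon Hira, 1 upon Ubn1 and 2 upon Ubn2 depletion. Upon Hira depletion Mterf2 was called lower by edgeR with the size factors of DESeq2 (-0.59) and with no filter on low counts (-0.59). The mitochondrial RNA polymerase Polrmt had a log2 fold change of -0.24 upon Hira, 0.05 upon Ubn1 and 0.10 upon Ubn2 depletion, and Tfam, which packages mitochondrial DNA and starts its transcription, had -0.23, -0.04 and -0.11. Polrmt was at 69.0 and 76.0 CPM in control and at 77.0 and 77.1 CPM upon Ubn2 depletion, where mitochondrial counts were highest. Tfb2m, a transcription initiation factor, had -0.46 (adjusted p = 0.00983) upon Hira depletion and did not reach 1.5-fold. The median log2 fold change of the 10 genes was -0.26 upon Hira, -0.05 upon Ubn1 and -0.06 upon Ubn2 depletion.

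Of 15 genes that maintain mitochondrial DNA, 2 were called lower upon Hira depletion, the primase-polymerase Primpol (log2 fold change -0.78, adjusted p = 2.52e-05) and the ribonucleotide reductase subunit Rrm2b (-0.66, adjusted p = 0.0157), which lost the call under DESeq2 (adjusted p = 0.0551), and 0 after the other depletions, where DESeq2 also called 0 and an unadjusted p under 0.05 was reached by 5 upon Ubn1 and 9 upon Ubn2 depletion. The mitochondrial helicase Twnk had a log2 fold change of 0.42 upon Ubn2 depletion (adjusted p = 5.21e-05), short of 1.5-fold, and the polymerase subunit Polg had -0.04. Among 36 genes of mitochondrial RNA processing and stability, 2 were called higher and 1 lower upon Ubn2 depletion, 1 lower upon Hira depletion and 0 upon Ubn1 depletion, where DESeq2 called 0 and 8 had an unadjusted p under 0.05. Hsd17b10, a subunit of the enzyme that cuts tRNAs out at their 5′ ends, was at 64.6 and 63.4 CPM in control, 34.5 and 39.2 upon Hira depletion, 44.5 and 55.2 upon Ubn1 depletion, and 40.8 and 40.3 upon Ubn2 depletion. It fell by 0.81 upon Hira and by 0.64 upon Ubn2 depletion on the log2 scale, was called in both, and had -0.35 (adjusted p = 0.0355) upon Ubn1 depletion without reaching 1.5-fold. The pseudouridine synthase Trub2 and the FASTK family member Tbrg4, both linked to the handling of mitochondrial transcripts, rose upon Ubn2 depletion with log2 fold changes of 0.82 and 0.61. Trub2 was at 53.0 and 59.4 CPM in control and at 94.3 and 102 CPM upon Ubn2 depletion. The mRNA-stabilizing partners Lrpprc and Slirp had -0.37 and -0.52 upon Hira depletion and -0.07 and 0.03 upon Ubn2 depletion, and neither was called.

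The mitochondrial aminoacyl-tRNA synthetases, which charge the tRNAs, had 1 of 19 called higher and 2 lower upon Hira depletion, 0 and 1 upon Ubn1 depletion, and 0 and 2 upon Ubn2 depletion. Over alternative settings the synthetases called in either direction ranged from 2 to 4 upon Hira and from 1 to 3 upon Ubn2 depletion. The call upon Ubn1 depletion was Lars2 and was lost under DESeq2 (adjusted p = 0.324) and in the joint fit of all 8 libraries (adjusted p = 0.219). Lars2, which charges leucine tRNA, was at 1181 CPM in the second Ubn2-depleted library and between 110 and 425 CPM in the other 7. That library also had the highest level of the rRNA-collecting gene Gm42418, 2924 CPM against 501 to 1416, and the part of this in the Lars2 counts was not tested. Of 13 mitochondrial translation factors, Gfm2 and Mtrf1 were lower upon Hira depletion and 0 were called after the others by edgeR's test or DESeq2, with 4 at an unadjusted p under 0.05 in each. Scaling by library totals took Gfm2 (-0.51) and Mtrf1 (-0.54) below 1.5-fold upon Hira depletion. Of 9 regulators of mitochondrial biogenesis, 8 could be tested and 0 were called by edgeR's test or DESeq2, with 2 or 3 at an unadjusted p under 0.05 in each comparison with control. With no filter on low counts, Ppargc1a was called upon Ubn2 depletion.

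Nuclear-encoded subunits of the respiratory chain, the partners of the mRNAs above, did not share the higher level upon Ubn2 depletion. Of 76 such genes, 63 had a log2 fold change below 0 upon Ubn2 depletion, where 50.4% of all genes tested were below 0, 0 were called in either direction by edgeR's test or by DESeq2, and the median was -0.14. Of the 76, 37 had an unadjusted and 31 an adjusted p under 0.05. No share of all genes is given at these thresholds, so these counts have no base to be read against. Their summed level was 13736 and 14179 CPM in control and 11928 and 12139 CPM upon Ubn2 depletion, while the mitochondrial mRNAs took 1.25 times the control share. That share is not scaled by TMM, and with TMM-scaled totals its log2 ratio was 0.27. Gene by gene, the mitochondrial mRNAs had a median log2 fold change of 0.11 upon Ubn2 depletion, with 1 of 12 called. Upon Hira depletion 72 of the 76 were below 0 and 9 were called lower, with a median of -0.31, where 48.9% of all genes were below 0, and upon Ubn1 depletion 57 were below 0, beside 50.4% of all genes, and 0 were called by edgeR's test or DESeq2, with a median of -0.10 and 11 at an unadjusted p under 0.05. Scaling by library totals left 5 called lower upon Hira depletion. Hira-depleted libraries summed to 11410 and 11306 CPM. The levels of the 2 sets were not compared by a test.

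Markers of other cell types were given beside the higher mitochondrial share of the Ubn2-depleted libraries. The 7 cardiac muscle markers summed to 225 and 137 CPM in those libraries, against 12.2 to 19.3 CPM in the other 6. Upon Ubn2 depletion 5 of the 7 were called higher and 1 lower. Against control the filter on low counts left all 7 for Ubn2, but 4 for Hira and 3 for Ubn1 depletion. Markers tested for Ubn2 alone could be tested only by being higher there. With a minimum of 10 counts in each library, 3 were tested for Ubn2 depletion, with 1 called higher and 1 lower. The 7 fibroblast markers summed to 31.3 and 26.7 CPM upon Ubn2 depletion and 25.6 and 24.8 CPM in control, with 2 called higher and 1 lower. Here the filter left 5 for Ubn2, but 3 each for Hira and Ubn1 depletion, so the same limit holds. With a minimum of 10 counts in each library, 3 fibroblast markers were tested for Ubn2 depletion, with 0 called higher and 1 lower. The 6 primitive endoderm markers summed to 12.3 and 10.8 CPM upon Ubn2 depletion and 12.2 and 10.6 CPM in control, with 0 called by edgeR's test or DESeq2 and 2 at an unadjusted p under 0.05. None of the markers in these lists was at 0 in all 8 libraries. The 10 ESC markers summed to 5790 and 5954 CPM upon Ubn2 depletion and 6979 and 7329 CPM in control, with 3 called lower. The first Ubn2-depleted library had the higher cardiac sum and a mitochondrial share of 1.45%, and the second had 1.41%. The part of the muscle marker genes in the mitochondrial share was not tested.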

How the data were processed

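The 8 libraries, 2 per group, were measured by RNA-seq. The submitters' processing notes name Trim Galore, STAR, featureCounts and the build GRCm38, with no versions, and the authors deposited unnormalized counts per gene, in 3 tables that list 55418 genes. Control values were the same in all 3 tables (0 differed) and were used once. No row lacked a gene name, and 21460 genes had no count.

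Members are all genes with mt- symbols. The members and gene lists were chosen with earlier results of these data known. Any member could be named. Of each list, up to 3 called genes with the smallest adjusted p were named, with a core set (Polrmt, Tfam, Tfb2m, Tefm, Lrpprc, Slirp, Polg, Twnk) whatever its result, plus the targets and up to 8 nuclear copies. A gene of these lists is not reported here. The log2 fold change of Tefm was -0.01 upon Hira, -0.05 upon Ubn1 and 0.24 upon Ubn2 depletion.

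Pairs of groups were compared with edgeR 4.0.16 in R 4.3.3 (TMM, filterByExpr, quasi-likelihood test, Benjamini-Hochberg adjustment), the 4 libraries of a comparison in each fit. The standard error is the log2 fold change over the root of the quasi-F statistic. Levels are CPM on TMM-scaled library sizes, with TMM factors of 0.960 to 1.05 over 8 libraries. Shares were compared with an exact two-sided permutation test. Alternatives were DESeq2 1.42.0, its size factors in edgeR, a replicate block, no filter, a minimum of 10 counts in each library, a joint fit of all 8 libraries, scaling without mt- genes, calls by adjusted p alone and each library left out. Scaling by library totals was added after the data were seen.

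Mitochondrial transcripts were searched with blastn 2.17.0 against 141730 nuclear transcripts of GENCODE M21, with at least 100 aligned bases and 95% identity. A search of the genome had been planned, and transcripts were used instead, so copies outside annotated transcripts were not analysed here. Python 3.11.15, pandas 2.3.3, scipy 1.17.1 and matplotlib 3.10.9 were used.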

Additional observations from a re-analysis of the deposited data

Results flagged for a closer look

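Depletions that were compared directly differed in single mitochondrially encoded genes in 21 instances, each an edgeR quasi-likelihood test of the difference itself with no control library in it. Of all genes tested, 12.0% were called higher and 5.61% lower with Hira against Ubn2, and 4.61% and 4.09% with Ubn2 against Ubn1. The 2 comparisons share the Ubn2-depleted libraries, so mt-Rnr2, mt-Nd1, mt-Tc, mt-Tl2, mt-Nd6 and mt-Te appear in both and are not independent instances. With Hira against Ubn2 depletion the log2 fold changes were -2.06 for mt-Tf, -1.11 for mt-Rnr2, -1.06 for mt-Tl1, -0.79 for mt-Nd1, -0.61 for mt-Tc, -0.65 for mt-Ty, -0.96 for mt-Th, -0.96 for mt-Ts2, -0.86 for mt-Tl2, -0.77 for mt-Nd5, -1.08 for mt-Nd6 and -1.30 for mt-Te. With Ubn2 against Ubn1 depletion they were 1.06 for mt-Rnr2, 0.72 for mt-Nd1, 0.69 for mt-Nd2, 0.72 for mt-Tn, 1.12 for mt-Tc, 2.73 for mt-Ts1, 0.84 for mt-Tl2, 0.71 for mt-Nd6 and 1.09 for mt-Te. The fitted value of mt-Ts1 rests on 5 counts in the Ubn1-depleted libraries and depends on how the fit treats such counts. Both mt-Tf and mt-Ts1 passed the filter on low counts through the Ubn2-depleted libraries alone, where they are high, so that they could be tested only by being higher there. Without them 11 genes were called with Hira against Ubn2 and 8 with Ubn2 against Ubn1 depletion. In mt-Rnr2 both Ubn2-depleted libraries lay above those of the other depletions.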

How the results depend on the processing

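No called value changed direction under any alternative. When 1 library at a time was omitted, which assumes that the lone library of a group varies like the others, the mitochondrially encoded genes called lower after Hira depletion ranged from 1 to 9 around 3, with 1 without the first Hira-depleted library, 9 without the second and 5 without the first control library, and those called higher from 0 to 3 around 0, with 3 without the second control library. After Ubn1 depletion the genes called lower ranged from 1 to 14 around 3, with 14 without the first Ubn1-depleted library and 1 without the second or without the second control library, and those called higher from 0 to 3 around 0, with 3 without the second Ubn1-depleted library and 2 without the second control library. After Ubn2 depletion the genes called higher ranged from 3 to 8 around 7, with 3 without the first control library. Between Hira and Ubn1 depletion the genes called lower ranged from 0 to 6, with 6 without the second Ubn1-depleted library, 2 without the first and 1 without the second Hira-depleted one, and those called higher from 0 to 5, with 5 without the first Ubn1-depleted library. Between Ubn2 and Ubn1 depletion they ranged from 1 to 21 around 9. Leaving out the first Ubn1-depleted library moved the log2 ratio of the mRNA share from -0.20 to -0.46 against control, from 0.14 to 0.40 for Hira against Ubn1 and from 0.53 to 0.79 for Ubn2 against Ubn1. The log2 ratios of this share with a library left out ranged from -0.46 to 0.016 for Ubn1 against control, from -0.082 to 0.40 for Hira against Ubn1 and from 0.31 to 0.79 for Ubn2 against Ubn1.

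Calls by adjusted p alone gave 7 genes lower after Hira depletion, 11 higher after Ubn2 depletion, 1 lower with Hira against Ubn1 and 16 higher with Ubn2 against Ubn1. DESeq2 gave 1 lower after Ubn1 depletion, 4 higher after Ubn2 depletion and 1 higher with Ubn2 against Ubn1. For neither setting is the share of all genes called given, so these counts show only how the calls moved. Scaling by library totals, added after the data were seen, gave 1 lower after Hira depletion and moved the median log2 fold change of all genes there by 0.12, and that of the mitochondrial mRNAs from -0.19 to -0.06. With TMM-scaled totals the log2 ratio of the mRNA share was -0.18 instead of -0.07 for Hira and 0.27 instead of 0.33 for Ubn2 against control, and -0.45 instead of -0.39 for Hira against Ubn2. The causes of these differences were not tested. The low counts of mt-Tf and mt-Ts1 limit what can be said of them.

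A replicate block raised the genes lower after Ubn1 depletion from 3 to 5 and changed no other count of mitochondrially encoded genes by more than 1.5 times. Upon Ubn2 depletion it lowered the called aminoacyl-tRNA synthetases from 2 to 1, where Gars lost its call, and raised the called translation factors from 0 to 1, where Mtrf1l was called higher. It also took mt-Ta upon Hira depletion below 1.5-fold (-0.55). Across 19264 genes, the departures of equally numbered libraries from the means of their groups had correlations between -0.052 and 0.067. Equally numbered libraries thus showed no shift in common across genes. Whether they were handled together cannot be told from this, since a shift in few genes would not show.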
